A study of Mus musculus with 30 samples.

Results

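Forkhead (Fox) and SOX proteins are transcription factors that carry a winged-helix and an HMG-box DNA-binding domain, respectively, and that set and maintain cell identity during development. The 60 genes described here are the protein-coding mouse genes whose symbol starts with Foxa to Foxs or Sox followed by a digit, apart from Foxa2, Sox2 and Sox17, which were left out, among 55401 genes in the count tables. Of these, 43 encode forkhead factors and 17 encode SOX factors. The forkhead genes were split by a fixed list into 13 called widely expressed here (Foxj2, Foxj3, Foxk1, Foxk2, Foxm1, Foxn2, Foxn3, Foxo1, Foxo3, Foxo4, Foxo6, Foxp1 and Foxp4) and 30 called developmental. These classes are labels and not a measured breadth of expression, and Foxo6 ranked only 28 of the 60 by exon level in SYAT controls. FOXO proteins are held in the cytoplasm by AKT phosphorylation and activate cell cycle arrest, survival and metabolic genes, FOXK and FOXP proteins mostly repress transcription, FOXM1 drives G2/M genes, and FOXD3 and FOXH1 act in pluripotent cells, the latter as a partner of SMAD proteins downstream of Nodal. Among SOX factors, the SoxC genes Sox4, Sox11 and Sox12 and the SoxB genes mark progenitors, and the SoxD factor SOX13 lacks a transactivation domain of its own.

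Nuclear RNA was sequenced from mouse embryonic stem cells (mESCs) to follow transcription after rapid loss of SRCAP, the catalytic subunit of the complex that exchanges H2A for H2A.Z, in 30 libraries forming 15 groups of 2 replicates. SYAT cells are CGR8 mESCs, one homozygous clone, in which both Srcap alleles carry a YPet-AID degron and which express the OsTir1 receptor, so that the auxin indole-3-acetic acid (IAA, 500 µM) degrades SRCAP; control cells were kept in auxinole, an OsTir1 inhibitor. SYAT cells were taken as controls or after 2, 4, 6 or 8 h of IAA. Parental CGR8 cells without degron were treated with IAA for 4 h or left untreated. SYAT cells were also sorted in early G1 (EG1) or late G1 (LG1), with or without 1 h of IAA, by DNA content and a mitotic degron reporter. Finally, SYAT clones with doxycycline-inducible wild-type SRCAP (wtSRCAP) or catalytically dead SRCAP (cdSRCAP) fused to mCherry, 1 clone each, were induced for 24 h, with or without 4 h of IAA, and sorted for mCherry. The wtSRCAP and cdSRCAP controls therefore express the transgene on top of the endogenous degron-tagged protein.

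The forkhead and SOX genes are spread over the genome, and 8 of them lie within 200 kb of another, in the Foxc1, Foxf2 and Foxq1, the Foxc2, Foxf1 and Foxl1, and the Foxd2 and Foxe3 neighbourhoods. A single exon is annotated for 21 of the 60, whereas 39 have introns. Promoter sequences from RefSeq (GRCm38.p6, 250 bases before to 50 bases after the transcript start) were found for 39 of the 60 genes, in 47 entries. They held a median of 21 CpG dinucleotides per 300 bases, against 7 over all 32851 promoter entries, with a range of 2 to 59. The 38 promoters of genes with enough counts for the SYAT time course had a median of 22, and the 9 of genes without enough counts a median of 10. The promoters of 5 genes whose libraries shifted in one direction at every IAA time are shown, 3 of them above and 2 below the controls, with CpG dinucleotides in capitals, since they span both ends of this range; they were picked after their values were seen.
Foxp1 (chr6:99028249-99028548, minus strand): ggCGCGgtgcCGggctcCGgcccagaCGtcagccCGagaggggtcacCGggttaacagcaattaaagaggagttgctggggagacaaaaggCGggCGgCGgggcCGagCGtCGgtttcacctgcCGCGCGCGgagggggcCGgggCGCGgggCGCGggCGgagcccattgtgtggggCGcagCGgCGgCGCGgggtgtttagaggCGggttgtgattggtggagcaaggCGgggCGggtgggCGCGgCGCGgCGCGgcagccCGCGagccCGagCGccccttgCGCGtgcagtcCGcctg
Foxo1 (chr3:52268087-52268386, plus strand): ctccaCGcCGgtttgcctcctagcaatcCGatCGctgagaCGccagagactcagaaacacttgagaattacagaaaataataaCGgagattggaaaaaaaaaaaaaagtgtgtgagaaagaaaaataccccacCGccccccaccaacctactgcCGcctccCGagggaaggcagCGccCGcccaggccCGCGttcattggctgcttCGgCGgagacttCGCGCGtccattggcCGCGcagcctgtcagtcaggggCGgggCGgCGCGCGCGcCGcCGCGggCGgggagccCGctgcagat
Sox13 (chr1:133424163-133424462, minus strand): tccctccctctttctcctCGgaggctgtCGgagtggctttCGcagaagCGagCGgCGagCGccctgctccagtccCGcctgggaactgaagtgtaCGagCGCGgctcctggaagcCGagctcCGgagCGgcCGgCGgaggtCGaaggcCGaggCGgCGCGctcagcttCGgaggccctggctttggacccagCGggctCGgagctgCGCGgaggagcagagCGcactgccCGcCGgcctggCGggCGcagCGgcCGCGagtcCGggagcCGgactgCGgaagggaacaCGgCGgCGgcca
Foxk2 (chr11:121259737-121260036, plus strand): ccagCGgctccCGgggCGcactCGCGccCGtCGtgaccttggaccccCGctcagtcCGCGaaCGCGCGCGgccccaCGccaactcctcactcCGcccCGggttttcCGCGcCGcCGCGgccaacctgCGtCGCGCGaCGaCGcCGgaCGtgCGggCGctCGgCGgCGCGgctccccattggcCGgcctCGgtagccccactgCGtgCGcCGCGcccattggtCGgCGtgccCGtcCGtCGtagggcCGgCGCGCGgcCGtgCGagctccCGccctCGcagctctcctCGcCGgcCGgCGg
Foxr2 (chrX:153118538-153118837, plus strand): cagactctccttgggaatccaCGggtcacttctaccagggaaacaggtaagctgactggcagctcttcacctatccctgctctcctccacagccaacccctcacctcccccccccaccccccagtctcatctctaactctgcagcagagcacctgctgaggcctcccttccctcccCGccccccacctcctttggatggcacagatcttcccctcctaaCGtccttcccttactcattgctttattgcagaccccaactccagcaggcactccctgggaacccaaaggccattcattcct
The Foxk2 promoter held 59 CpG, the most of any forkhead or SOX promoter entry, Foxp1 44, Sox13 40, Foxo1 31 and Foxr2 only 3. For Foxp1 the richest of its 3 entries is shown. The forkhead core motif TGTTTAC, searched on both strands, was in 4.26% of the 47 promoters and in 3.65% of all promoters, and the SOX core ACAATG in 10.6% and 12.6%. CCAAT was in 48.9% and 37.4%, and TATAAA in 8.51% and 13.6%.

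Exon columns summed to 17540823 to 22873893 counts in the time course, 45617992 to 60214521 in CGR8 cells, 19740778 to 26672402 in sorted cells and 12236493 to 26369773 in wtSRCAP and cdSRCAP cells. After the filter on low counts, 46, 48, 50 and 41 of the 60 genes were tested. All 13 widely expressed forkhead genes were tested in every table, but only 13 to 20 of the 30 developmental ones. In the time course, 12 genes had under 10 counts in every library, Foxi1 had 0 in all, and 16 had at least 1000 counts in every library. The 8 mESC markers, such as Pou5f1 and Nanog, were present in every library, and Srcap mRNA ranged from 815 to 1231 normalised counts in the time course, which does not report on the degraded protein. Replicates of every group differed beyond sampling noise. The p-values measure only the spread between duplicates, 2 per group, estimated jointly over all groups of a table.

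In exon CPM (counts scaled to the library total) per kb of exon, the SYAT control cells expressed Foxh1 most (67.6 ± 3.20, SD, n = 2), followed by Foxd3 (49.5 ± 5.84) and the SoxC gene Sox4 (38.4 ± 6.25). The ranges of these 3 did not overlap. Foxi3, Foxo3, Foxo4 and Foxk2 came next at 21.3, 21.3, 20.4 and 19.7, and the ranges of neighbours overlapped from Foxi3 to Foxk2. Foxp4 (16.1), Sox12 (15.8), Foxm1 (15.0), Sox13 (13.8), Sox11 (12.9), Sox3 (12.8) and Foxn3 (10.2) formed the next tier. Foxo1 stood at 9.46 ± 0.613 and Foxp1 at 4.84 ± 0.905, rank 16 and 20. Of the 59 pairs of neighbours in this order, 39 had overlapping ranges, so the order holds between tiers rather than between neighbours. Factors known from differentiated lineages lay on both sides of 1 CPM per kb: Foxn4 was at 6.94, Foxj1 at 3.63, Foxa3 at 1.63 and Sox18 at 1.35, whereas Sox7 was at 0.465, Sox10 at 0.353, Foxa1 at 0.265, Sox9 at 0.228 and Sox1 at 0.177, while Foxe3, Foxi1 and Foxl1 had no count. Foxh1 was also first in the controls of CGR8 (53.9 ± 3.54), EG1 (48.4 ± 3.14), LG1 (48.3 ± 6.05) and wtSRCAP cells (39.0 ± 1.97), but at rank 4 in cdSRCAP controls (28.3 ± 3.78), where Foxd3 was first (63.9 ± 14.5). Foxd3 was second in CGR8 (33.5) and wtSRCAP cells (38.5, with a range overlapping that of Foxh1), and at rank 19 in EG1 (6.51 ± 7.57) and LG1 controls (7.28 ± 6.19).

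**Figure D1:**
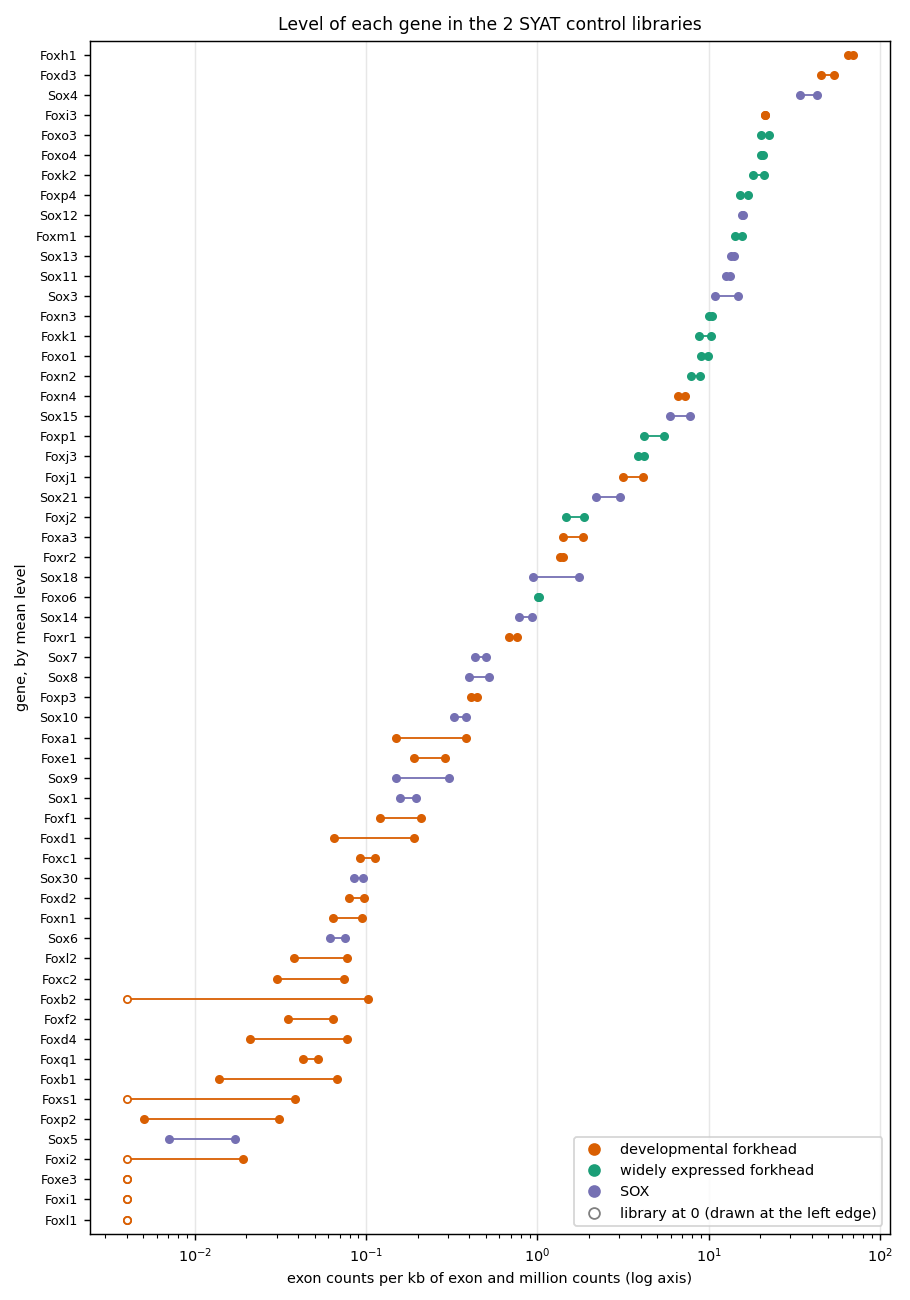
Exon CPM per kb in SYAT control cells for 59 of the forkhead and SOX genes (log axis), ordered by their mean; points are the 2 libraries, coloured by class, and open points are libraries at 0. Foxh1, Foxd3 and Sox4 stand above the others with means of 67.6, 49.5 and 38.4.

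Loss of SRCAP for 2 to 8 h was compared with control SYAT cells to ask which of these genes respond. Taken as the mean of 4, 6 and 8 h, Foxp1 rose by 0.75 on the log2 scale (SE 0.148, adjusted p = 0.0357, edgeR) and Foxo1 by 0.57 (SE 0.103, adjusted p = 0.0247), and no gene fell. These were 2 of the 46 genes tested, where 2.17% of the 19205 genes tested passed the same thresholds, an adjusted p under 0.05 and an absolute log2 fold change over 0.5. At that share, 1 of the 46 would have passed. The median change of the 46 genes was 0.28, against 0.02 over all genes. At an unadjusted p under 0.05, 10 were higher and 3 lower, where 6.13% of all genes were higher and 10.5% lower. The 4 IAA times share the 2 control libraries, so the comparisons at each time are not independent of each other. In bulk RNA, fewer cells of a type and less RNA per cell cannot be told apart.

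At single times and without the replicate number as a block, no forkhead or SOX gene passed the adjusted threshold. Of all genes, 0, 0, 13 and 1 passed at 2, 4, 6 and 8 h (0%, 0%, 0.0677% and 0.00521%). Same-numbered samples of the controls, 2, 4 and 8 h deviated together in exon columns (correlations 0.397 to 0.702). The unadjusted p-values below leave this pairing out. With the block, edgeR called 4 genes at 6 h (4.29% of all genes) and 1 at 8 h (3.3%). At an unadjusted p under 0.05, 4 were higher and 0 lower at 2 h, where 1.37% of all genes were higher and 2.55% lower. At 4 h, 10 were higher and 1 lower (background 3.09% and 6%). At 6 h, 11 were higher and 2 lower (7.93% and 8.21%), and at 8 h, 6 were higher and 2 lower (5.13% and 8.44%). The median change was 0.20, 0.15, 0.29 and 0.09 at the 4 times, while the median over all genes stayed between 0.00 and 0.03. Both IAA libraries lay above both controls for 13, 17, 18 and 15 genes at 2, 4, 6 and 8 h (18.6%, 21.7%, 21.5% and 20.9% of all genes), and below both for 4, 9, 7 and 7 (21%, 24.1%, 22.2% and 24%). At 6 h, calls appeared when replicate 1 of the 6 h group was left out, which leaves 1 library there. DESeq2 on all libraries called 5 at 6 h (3.33% of all genes).

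Foxp1, a forkhead repressor with a splice isoform of its own in mESCs, maps to chromosome 6 (98925338 to 99522721, minus strand) and overlaps 4 predicted genes on its own strand. Its normalised exon counts were 1180 and 1540 in the controls, 1703 and 1889 at 2 h, 2122 and 2518 at 4 h, 2323 and 2037 at 6 h, and 2098 and 2596 at 8 h. Every IAA library was above both controls. The log2 change was 0.40, 0.77, 0.68 and 0.79 at the 4 times. Foxo1, the FOXO factor downstream of insulin and AKT signalling, maps to chromosome 3 (52268336 to 52353221, plus strand) and overlaps Gm38034 on its own strand and Gm20402 on the other. It had 1598 and 1751 normalised counts in the controls, 2499 and 2520 at 2 h, 2637 and 2559 at 4 h, 2375 and 2718 at 6 h, and 2369 and 2263 at 8 h. Here too the groups were separate at every time, with log2 changes of 0.58, 0.63, 0.60 and 0.47. Foxo1 was the forkhead or SOX gene with the smallest p at 2 h (unadjusted p = 0.000728, adjusted p = 0.772).

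Both calls were lost when some single libraries were left out, and both stayed without others. Without control replicate 1, Foxp1 stood at 0.57 (adjusted p = 0.423) and Foxo1 at 0.50 (0.374), and without control replicate 2 at 0.95 (0.273) and 0.64 (0.288). Without either 4 h library, or without replicate 2 at 8 h, neither gene passed (adjusted p between 0.0541 and 0.0911), and without replicate 1 at 8 h Foxp1 passed (0.0487) and Foxo1 did not (0.0590). Without replicate 1 at 6 h, Foxp1 stood at 0.71 and Foxo1 at 0.60, and without replicate 2 at 6 h at 0.77 and 0.53. Both calls stayed in these 6 h fits, but each fit in this paragraph leaves 1 library in a group.

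Sox13 and Foxh1 also had every IAA library above both controls, but did not pass the threshold without the block. With the block, edgeR called both at 6 h (4.29% of all genes) and Sox13 over 4 to 8 h (6.12%). The values below are without the block. Sox13, on chromosome 1 (133382303 to 133424377, minus strand), had 1244 and 1193 normalised counts in the controls, 1405 and 1759 at 2 h, 1884 and 2026 at 4 h, 1661 and 2311 at 6 h, and 1404 and 1456 at 8 h. It was furthest from the controls at 4 and 6 h (log2 0.68 and 0.70) and closer again at 8 h (0.23), and its mean over 4 to 8 h was 0.54 (adjusted p = 0.0908). For Foxh1, on chromosome 15 (76668225 to 76669948, minus strand), the controls had 1949 and 1822, followed by 2242 and 2287 at 2 h, 2529 and 2471 at 4 h, 2485 and 2929 at 6 h, and 2718 and 2397 at 8 h. The mean log2 change was 0.46 (adjusted p = 0.0604).

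Across all 4 times, 11 genes had every IAA library above both controls: Foxe1, Foxh1, Foxi3, Foxn2, Foxn3, Foxo1, Foxo4, Foxo6, Foxp1, Foxp4 and Sox13. Over all genes tested this share was 5.97%. Of the 11, 7 are in the class called widely expressed forkheads, Foxo6 among them, 3 are developmental forkheads and Sox13 is a SOX gene. Below both controls throughout were 2 genes, Foxk2 and Foxr2, where 9.2% of all genes were. Foxk2, whose protein recruits the SIN3A corepressor, had 2271 and 1953 normalised counts in the controls and 1854 and 1551, 1617 and 1385, 1705 and 1385, and 1852 and 1487 at 2, 4, 6 and 8 h. Its mean log2 change over 4 to 8 h was -0.43 (adjusted p = 0.146). Foxr2 had 92.1 and 89.5 in the controls and between 22.6 and 87.2 with IAA, the lowest being replicate 2 at 6 h.

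**Figure D2:**
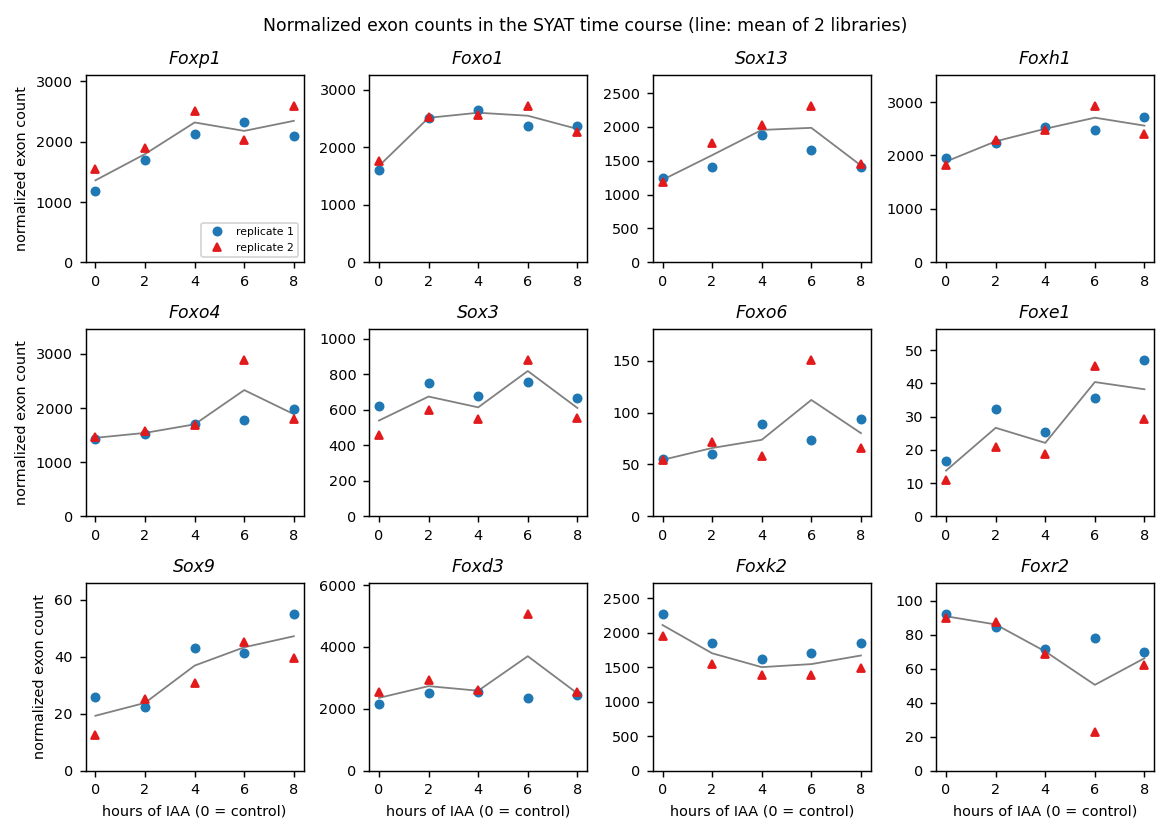
Normalised exon counts of 12 genes in SYAT controls (0 h) and after 2, 4, 6 and 8 h of IAA; circles are replicate 1, triangles replicate 2, and the line joins the group means. Foxp1, Foxo1, Sox13 and Foxh1 lie above both controls in every IAA library and Foxk2 below, while Foxd3 at 6 h rests on the library with 5062.

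The other FOXO genes gave no call. Foxo4 had 1428 and 1473 normalised counts in the controls and 1775 and 2887 at 6 h (log2 0.68, unadjusted p = 0.00556, adjusted p = 0.144). Its change at 6 h was 0.29 without replicate 2 of that group and 1.00 without replicate 1, each fit leaving 1 library there. Foxo3, the most expressed FOXO gene, had 3468 and 3111 in the controls and between 2600 and 3756 with IAA. Foxo6 was at 54.8 and 54.0 in the controls and 73.5 and 151 at 6 h, so that 1 library sets most of its log2 change of 1.04. Of the FOXP genes, Foxp4 had 1534 and 1716 in the controls and 2065 and 2335 at 6 h (log2 0.44, adjusted p = 0.144), while Foxp2 and Foxp3 had at most 18.9 and 44.5 in any library. Signs differed among the FOXN genes. Foxn2 was at 1180 and 1333 in the controls and between 1358 and 1761 with IAA, so that every IAA library was above both controls. Foxn4, an early retinal progenitor factor, had 455 and 501 in the controls and 313 and 359 at 8 h (log2 -0.51, unadjusted p = 0.0132, adjusted p = 0.228). Foxm1, the G2/M activator, had 1844 and 1671 in the controls and 1508 and 1409 at 8 h, and its mean log2 change over 4 to 8 h was -0.26 (adjusted p = 0.231).

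Foxd3, which restrains differentiation of naive mESCs, was set apart by 1 library. It had 2155 and 2547 normalised counts in the controls, 2523 and 2939 at 2 h, 2547 and 2616 at 4 h, 2336 and 5062 at 6 h, and 2442 and 2551 at 8 h. The log2 change at 6 h was 0.65 with both libraries (unadjusted p = 0.0409) and -0.007 without replicate 2. Summed mESC marker counts were also highest in that 6 h library (58960, against 31740 and 40070 in the controls and 38800 in the other 6 h library), and their part in the result was not tested. The SoxB1 gene Sox3, a neural progenitor factor, had 622 and 457 in the controls and 755 and 880 at 6 h (log2 0.60, adjusted p = 0.207).

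Factors of other lineages had large ratios of few counts. The thyroid forkhead Foxe1 had 16.55 and 10.97 normalised counts in the controls, and 35.6 and 45.2 at 6 h and 47.0 and 29.4 at 8 h (log2 1.55 and 1.47, adjusted p = 0.145 and 0.182). Sox9, which specifies cartilage and gonad, had 25.9 and 12.7 in the controls and 41.5 and 45.2 at 6 h and 55.0 and 39.5 at 8 h (log2 1.18 and 1.30, adjusted p = 0.217 and 0.208). In the other direction the endoderm factor Foxa3 had 76.5 and 59.1 in the controls and 46.0 and 26.0 at 8 h (log2 -0.92, adjusted p = 0.324). None of these passed the adjusted threshold. The developmental forkheads had a median change of 0.32 over 4 to 8 h (17 genes), the SOX genes 0.16 (16) and the widely expressed forkheads 0.08 (13).

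The SoxC genes, the most expressed SOX group here, gave no call. Sox4 had 4199 and 3332 normalised counts in the controls and between 2865 and 4842 with IAA, with a mean log2 change over 4 to 8 h of 0.055 (adjusted p = 0.894). Sox11 was at 2142 and 2252 and then between 1904 and 2497 (log2 -0.025, adjusted p = 0.935), and Sox12 at 1430 and 1450 and then between 1248 and 1777 (0.021, adjusted p = 0.954). For all 3 the IAA libraries spread to both sides of the controls. The FOXK gene Foxk1 was at 1368 and 1589 in the controls and between 1290 and 1554 with IAA (log2 -0.12, adjusted p = 0.621). Of the genes not tested here for want of counts, 13 were developmental forkheads (Foxb1, Foxb2, Foxc2, Foxd2, Foxd4, Foxe3, Foxf2, Foxi1, Foxi2, Foxl1, Foxn1, Foxq1 and Foxs1) and the other was Sox5, with at most 16 counts in any library.

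Markers of mESCs and of other cells were read beside these genes, and none passed the threshold over 4 to 8 h. With an unadjusted p under 0.05, 2 of 8 mESC markers, 2 of 6 tested endoderm markers (a list that includes Sox7) and 2 of 5 mesoderm markers were higher. So were 1 of 5 neuroectoderm, 1 of 5 trophoblast and 1 of 4 fibroblast markers, and 1 fibroblast marker was lower. Over all genes tested, 6.13% were higher and 10.5% lower at that p. Summed normalised counts of the mesoderm markers were 298 and 221 in the controls and between 330 and 525 with IAA, and those of the endoderm markers 5135 and 5008 and then between 5530 and 7307. The neuroectoderm sum was 6285 and 4005 in the controls and between 4016 and 6538 with IAA, the trophoblast sum 497 and 442 and then between 525 and 784, and the fibroblast sum 601 and 488 and then between 507 and 816. Mesoderm, endoderm and trophoblast sums were thus above both controls in every IAA library. Of single genes tested, 5.97% were, and no such share is given for sums. In the time course, 1 of 7 endoderm markers (Afp) was under 10 normalised counts in every library. The same held for 1 of 6 mesoderm (Mesp1), 1 of 6 neuroectoderm (Neurog2) and 1 of 6 trophoblast markers (Elf5). Of the 6 fibroblast markers, Postn was under 10 throughout and Col3a1 in all groups but 6 h. The remaining markers of these lists were not under 10. The part of these cells in the results was not tested.

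**Figure D3:**
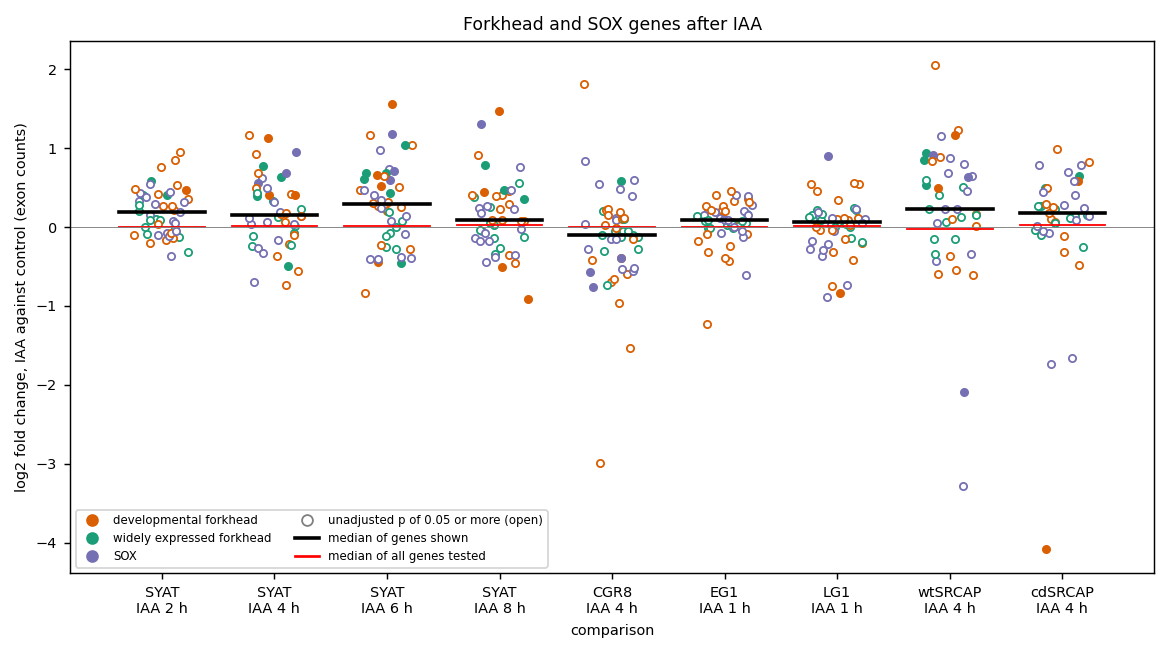
Log2 change of exon counts with IAA for each tested forkhead and SOX gene (points, coloured by class, open where the unadjusted p was 0.05 or more) in 9 comparisons; black lines are their medians and red lines the medians of all genes. The median was highest at 6 h in SYAT cells (0.29) and below 0 in CGR8 cells (-0.10).

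Parental CGR8 cells lack the degron, so this comparison asks what IAA does on its own. Without a replicate block, no forkhead or SOX gene of the 48 tested passed the threshold, which 0.00988% of all genes passed. Same-numbered samples deviated together in the exon columns (correlation 0.206). With the replicate number as a block, 3 genes passed, where 2.47% of all genes did. Foxp1 was higher, and Sox12 and Sox21 were lower. The values below are without the block. At an unadjusted p under 0.05, Foxp1 was higher (5.04% of all genes) and Sox21, Sox12 and Sox11 lower (4.12%). The median change was -0.10, beside -0.000302 over all genes. Both IAA libraries were above both controls for 4 genes and below for 18, where 21.6% and 20.6% of all genes were. Foxp1 had 3518 and 4991 normalised counts in untreated CGR8 cells and 6223 and 6472 with IAA, a log2 change of 0.58 (SE 0.180, unadjusted p = 0.0105, adjusted p = 0.540), beside 0.77 after 4 h in SYAT cells. The libraries were separate, so the higher Foxp1 count with IAA was also seen in cells without degron. Foxo1 had 2527 and 2461 without and 2589 and 2779 with IAA (log2 0.11, SE 0.137, unadjusted p = 0.459). Sox13 (log2 0.03), Foxh1 (-0.01) and Foxk2 (-0.05) were close to 0, with standard errors of 0.154, 0.151 and 0.134. The difference between CGR8 and SYAT cells was not tested, since the tables were normalised separately.

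The 3 genes lower in CGR8 cells at an unadjusted p are single-exon SOX genes. Of the 14 single-exon genes tested there, 2 had a change above 0, with a median of -0.46, beside a median of 0.01 for the 34 genes with several exons. Sox21, a SoxB2 repressor of neural progenitor genes, had 1307 and 1252 normalised counts without and 855 and 663 with IAA (log2 -0.75, unadjusted p = 0.00273, adjusted p = 0.540). Sox12 had 3652 and 3052 without and 2410 and 2102 with IAA (log2 -0.57), and Sox11 2808 and 3002 without and 2144 and 2296 with IAA (-0.39). In the SYAT time course at 4 h, the same genes had log2 changes that did not pass, with Sox12 at 0.069, and its libraries with IAA (1543 and 1478) were above both controls (1430 and 1450). Foxo4, also higher in SYAT cells, had 4796 and 3769 without and 3681 and 3280 with IAA in CGR8 cells (log2 -0.30, adjusted p = 0.602).

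**Figure D4:**
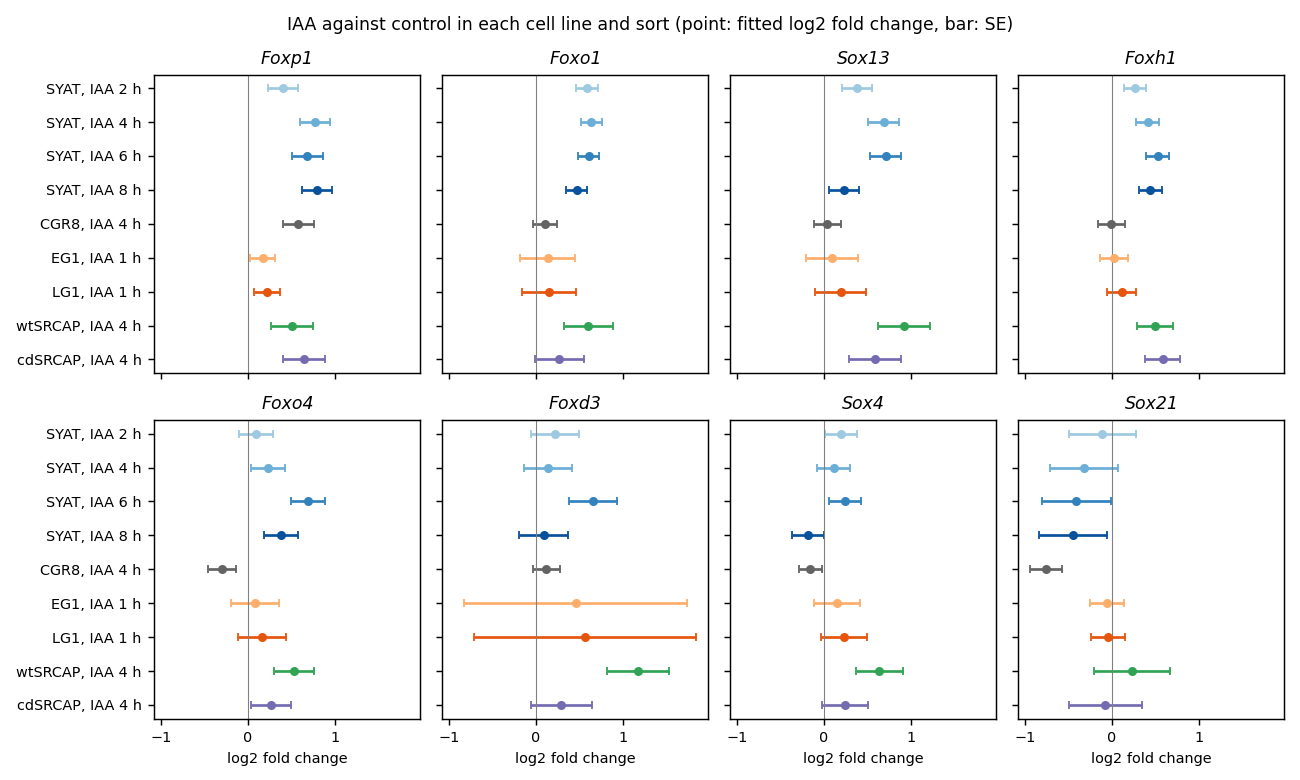
Log2 change with IAA (point) and its standard error (bar) for 8 genes in each cell line and sort, each fitted within its own table. At 4 h of IAA, Foxp1 is at 0.77 in SYAT and 0.58 in CGR8 cells, whereas Foxo1, Sox13 and Foxh1 are at 0.11, 0.03 and -0.01 in CGR8 cells.

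Sorted EG1 and LG1 cells were compared with and without 1 h of IAA, to ask whether the response depends on the phase of G1. Of the 50 genes tested, none passed the adjusted threshold in EG1 or LG1 without a replicate block, nor did any of all 21020 genes (0%). Same-numbered samples deviated together in these cells, and with the replicate number as a block none of the 50 passed with IAA either. The unadjusted p-values that follow are without the block and so leave this pairing out. An unadjusted p under 0.05 was reached by 0 genes upwards and 0 downwards in EG1 (0.19% and 1.03% of all genes). In LG1, the endothelial factor Sox18 was higher and the regulatory T cell factor Foxp3 lower (0.285% and 0.733%). Sox18 had 30.1 and 40.5 normalised counts in LG1 controls and 60.8 and 71.0 with IAA (log2 0.90), and Foxp3 had 80.2 and 57.5 in controls and 35.0 and 41.8 with IAA (-0.84), both with an adjusted p of 1. The median change was 0.08 in EG1 and 0.06 in LG1. Between EG1 and LG1 control cells, 2 genes were higher in EG1 at an unadjusted p under 0.05, where 0.733% of all genes were, and none lower (0.709%). Among them was Sox8, a SoxE gene, with 45.9 and 63.9 normalised counts in EG1 and 20.1 and 32.0 in LG1 (log2 1.07). Without a replicate block, no gene passed the adjusted threshold there or in the test of the difference between the responses of EG1 and LG1 (0% of all genes in both; 0.452% and 0.247% had an unadjusted p under 0.05 with a positive and a negative difference). With the block, again none of the 50 passed in either, where 0.723% of all genes did between EG1 and LG1 controls and 0% in the difference between the responses.

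Replicates of the sorted cells differed more than the conditions for several of these genes. Replicate 1 was higher in all 4 groups for 17 of the 50 genes and replicate 2 for 15. The share over all genes was not computed. Replicate differences of the 4 groups also correlated at 0.538 to 0.748 over 16550 genes, so the pattern was not confined to these genes. Foxd3 had 60.9 and 628 normalised counts in EG1 controls, 125 and 813 in EG1 with IAA, 154 and 617 in LG1 controls and 146 and 992 in LG1 with IAA, a mean log2 ratio of -2.70 between replicates 1 and 2. For Sox5, Sox10, Sox30 and Sox6 the mean log2 ratio was 1.80, 1.07, 1.06 and 1.02, with replicate 1 higher.

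Cells expressing wtSRCAP or cdSRCAP were used to ask whether the transgene changes the response to loss of endogenous SRCAP. Of the 41 genes tested, none passed the adjusted threshold with IAA in wtSRCAP (0.00523% of all genes) or cdSRCAP cells (0%) without a replicate block. With the replicate number as a block, since samples with the same number deviated together in this table, 4 genes passed in wtSRCAP cells (3.2% of all genes) and 3 in cdSRCAP cells (1.81%), all higher. At an unadjusted p under 0.05 without the block, 7 were higher and 1 lower in wtSRCAP cells (2.93% and 4.48% of all genes), and 3 higher and 1 lower in cdSRCAP cells (1.65% and 3.99%). The median change was 0.23 and 0.18, against -0.02 and 0.02 over all genes. Libraries were separate upwards for 16 genes in both clones (14.9% and 18.7% of all genes) and downwards for 5 and 3 (19.5% and 19%).

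Foxd3 had the largest difference among the well-expressed genes in wtSRCAP cells, with 1855 and 1434 normalised counts in the controls and 5012 and 2377 with IAA (log2 1.17, with the block 1.10, SE 0.160, adjusted p = 0.000647). Replicate 1 with IAA was far above the others. In cdSRCAP cells, Foxd3 was already at 3164 and 2289 in the controls and at 3845 and 2813 with IAA, and the cdSRCAP controls were above the wtSRCAP controls by 0.72 with the block (SE 0.159, adjusted p = 0.0227), the only one of the 41 genes to pass there (0.91% of all genes with the block, 0% without). The test of a different response between the clones gave -0.88 for Foxd3 (SE 0.497, adjusted p = 1).

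Sox13 passed with the block in both clones. It had 1418 and 1225 normalised counts in wtSRCAP controls and 3037 and 1943 with IAA (with the block 0.88, SE 0.152, adjusted p = 0.00293), and 1661 and 1056 in cdSRCAP controls and 2292 and 1777 with IAA (0.61, SE 0.151, adjusted p = 0.0375). Sox4 in wtSRCAP cells had 2823 and 2854 without and 5524 and 3299 with IAA (with the block 0.59, adjusted p = 0.0352). For Foxo1 the wtSRCAP values were 833 and 1333 without and 1373 and 1906 with IAA (with the block 0.61, adjusted p = 0.0308), and in cdSRCAP cells 1105 and 1428 without and 1458 and 1591 with IAA. The Foxo1 groups did not overlap in either clone. Foxp1 had 1220 and 1384 in wtSRCAP controls and 1451 and 2248 with IAA, and 1656 and 1514 in cdSRCAP controls and 2471 and 2489 with IAA (with the block 0.64, adjusted p = 0.0395 in cdSRCAP). Foxh1 had 943 and 1012 in wtSRCAP controls and 1313 and 1437 with IAA, and 642 and 776 in cdSRCAP controls and 1059 and 1066 with IAA (with the block 0.59, adjusted p = 0.0487 in cdSRCAP). Foxk2 was at 1917 and 1795 in wtSRCAP controls and 1479 and 1445 with IAA, and at 1361 and 1485 and then 1272 and 1115 in cdSRCAP cells, lower in each library but without passing the threshold. Summed mESC markers also went from 43160 and 51450 to 57420 and 60430 in wtSRCAP cells and from 51450 and 71480 to 65980 and 80860 in cdSRCAP cells. Mesoderm markers summed to 162 and 108 in wtSRCAP controls and 292 and 198 with IAA, and to 183 and 172 and then 347 and 305 in cdSRCAP cells. Endoderm markers summed to 3951 and 3889 and then 4927 and 4843 in wtSRCAP cells, and to 3859 and 4338 and then 5449 and 4362 in cdSRCAP cells. The fibroblast sum was 114 and 134 and then 249 and 241 in wtSRCAP cells, and 155 and 169 and then 174 and 168 in cdSRCAP cells. Neuroectoderm sums were 2053 and 2350 and then 3341 and 2569 in wtSRCAP cells and 1854 and 2695 and then 2368 and 2811 in cdSRCAP cells, and trophoblast sums 1429 and 552 and then 1714 and 700, and 807 and 639 and then 1043 and 777. Among the listed markers, Afp, Mesp1, Neurog2, Elf5, Col3a1 and Postn were under 10 normalised counts in every library of both clones. The other markers were not under 10 in every group. The part of these markers in the results was not tested.

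Between the clones without IAA, 2 genes were higher and 1 lower in cdSRCAP cells at an unadjusted p under 0.05 (2.5% and 1.32% of all genes), and with IAA 1 was higher and 2 lower (2.84% and 2.19%), none of them passing the adjusted threshold (0% and 0.00523% of all genes). With IAA, Sox1 had 16.1 and 15.8 normalised counts in wtSRCAP and 51.9 and 40.4 in cdSRCAP cells (log2 1.52). Sox11 had 1969 and 1666 in wtSRCAP and 1254 and 1313 in cdSRCAP cells (-0.50), and the ciliated cell factor Foxj1 461 and 198 in wtSRCAP and 183 and 135 in cdSRCAP cells (-1.04). No gene showed a response to IAA that differed between wtSRCAP and cdSRCAP cells at the adjusted threshold (0% of all genes), and at an unadjusted p under 0.05 only Foxn1, with at most 12.6 normalised counts in any of these libraries, did, where 0.413% of all genes had a positive and 0.372% a negative difference.

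Intron columns were read beside the exon columns, but they do not hold the same kind of reads in every table. Single-exon genes such as Foxd3, Sox4 and Sox11 have no intron, and in CGR8, LG1, wtSRCAP and cdSRCAP libraries their intron columns were 0. In the time course, the summed intron count of the 12 single-exon genes with at least 100 summed exon counts was a median of 0.971 of their exon count (2 of them were at 0), and in EG1 0.946 for 13 genes (1 at 0). Foxd3 had 2084 exon and 2060 intron counts in SYAT control replicate 1, and 3520 exon and 0 intron counts in CGR8 control replicate 1. Intron columns of the time course and EG1 thus held counts for genes without introns, and Foxh1, with 1884 exon and 1883 intron counts in that SYAT control against 3292 and 15 in CGR8 cells, had nearly equal columns in the time course as well. The intron comparison of EG1 with LG1 called 29 of 44 genes (59% of all genes), 21 higher and 8 lower, and cannot be told apart from this difference in content.

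**Figure D5:**
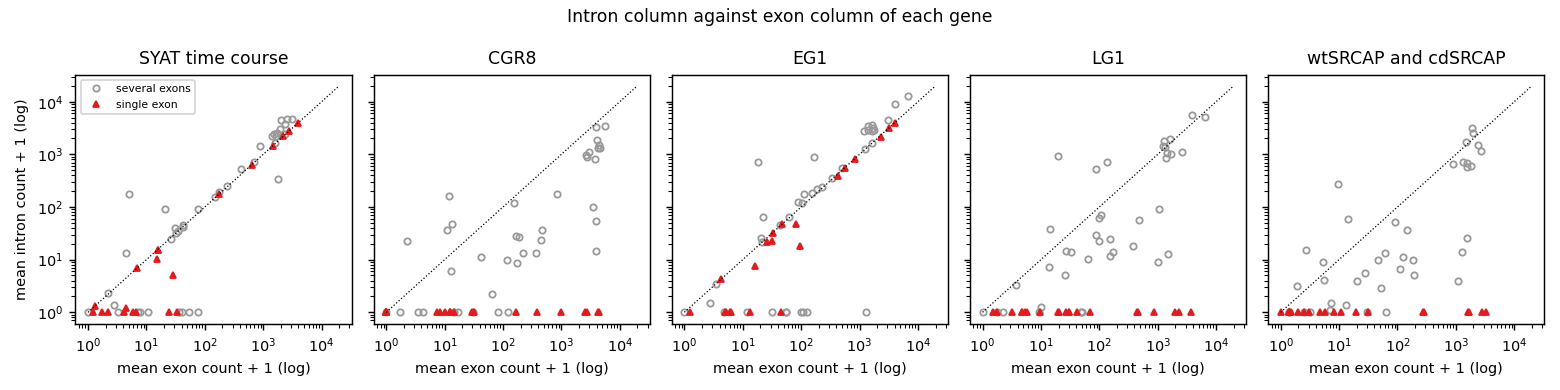
Mean intron count against mean exon count (both plus 1, log axes) of each forkhead and SOX gene, by group of libraries; triangles are single-exon genes, circles genes with several exons, and the dotted line marks equal counts. Single-exon genes with higher counts lie along the line in the time course and EG1, with median ratios of 0.971 and 0.946, and at an intron count of 0 elsewhere.

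In the tables where single-exon genes had no intron counts, the intron columns of Foxp1 and Foxo1 were compared. Foxp1 had 1701 and 1698 normalised intron counts in wtSRCAP controls and 2533 and 2849 with IAA (log2 0.66, adjusted p = 0.141), 2272 and 1994 in cdSRCAP controls and 3560 and 3036 with IAA (0.63, adjusted p = 0.151), and 2570 and 3117 in CGR8 cells without and 3706 and 3524 with IAA (0.35, adjusted p = 0.925). The libraries were separate in all 3 comparisons. Foxo1 had 1132 and 1221 in wtSRCAP controls and 1627 and 1497 with IAA (log2 0.41, adjusted p = 0.292), and 1517 and 1637 in cdSRCAP controls and 1983 and 2299 with IAA (0.44, adjusted p = 0.286). None of the intron columns gave a called gene for IAA: 0 of 38 in the time course (0%, 0%, 0.0136% and 0.00679% of all genes at 2, 4, 6 and 8 h), 0 of 28 in CGR8 (0.022%), 0 of 44 in EG1 and LG1 (0.00573% and 0%), and 0 of 22 in wtSRCAP and cdSRCAP cells (0.299% and 0.236%).

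Genes acting with these factors were followed as 3 lists, the last of which shares Pou5f1, Pax6 and Gata4 with the marker lists. Of 25 FOXO regulators, all tested, 1 rose over 4 to 8 h in SYAT cells and none fell, Sgk1, an AKT-related kinase that phosphorylates FOXO proteins (log2 0.75, adjusted p = 0.0227), where 2.17% of all genes were called. In CGR8 cells Sgk1 was also higher with IAA (log2 0.49, unadjusted p = 0.00389, adjusted p = 0.540). Unadjusted, 6 regulators were higher and 1 lower (6.13% and 10.5% of all genes), among them Sirt1, a FOXO deacetylase (0.42), and Pdpk1, which activates AKT (-0.29). Of the 21 textbook FOXO target genes, 17 were tested, and Gadd45a, a growth arrest gene, rose (log2 0.80, adjusted p = 0.0237), with 0.30 in CGR8 cells (adjusted p = 0.571). Unadjusted, 3 targets were higher and 1 lower: the pro-apoptotic Bcl2l11 was at 0.43 and the insulin receptor gene Insr at -0.62. Of 25 partner genes of SOX and forkhead factors, 24 were tested, and the Groucho-type corepressor Tle3 rose (log2 0.53, adjusted p = 0.0293), with 0.04 in CGR8 cells. The medians of the 3 lists were 0.05, 0.14 and 0.15, against 0.02 over all genes, and no gene of the 3 lists passed at a single time or in another table.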

How the data were processed

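The authors aligned 75-nt paired-end reads of nuclear RNA to mm10 with STAR, used SAMtools 1.10 and Picard, and counted reads with featureCounts on exons and introns (gene body minus exons) of GENCODE vM25. The strand setting of the counting is not given in the sources used here, so a gene and its antisense partner may share reads. The deposited values are raw counts per gene and library, in 4 tables with an exon and an intron column per library. Tables of the authors' own DESeq2 comparisons (fold changes and p-values) were not used. Symbols and coordinates come from GENCODE vM21 (GRCm38), in which 58 of the 60 genes carry the same identifier version.

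Each table and column type was fitted on its own in R 4.3.3 with edgeR 4.0.16 (glmQLFit, glmQLFTest), after filterByExpr (minimum count 10, minimum total 15) and TMM scaling, with Benjamini-Hochberg adjustment over all genes tested. A call needs an adjusted p under 0.05 and an absolute log2 fold change over 0.5. Normalised counts are counts divided by a size factor and compare within a table only. The size factor is the library total over tested genes times the TMM factor, set to a geometric mean of 1 in each table. Alternatives were DESeq2 1.42.0, the replicate number as a block, other size factors, no filter and leaving out each library. The scripts were tested on simulated data.

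Same-numbered samples were taken as paired where every correlation of their deviations from the group means was over 0.1, which held in the exon columns of wtSRCAP and cdSRCAP cells (0.429 to 0.562) and in the sorted cells (exon 0.538 to 0.748, intron 0.155 to 0.674). The exon columns of CGR8 cells, with a single correlation of 0.206, also met this. Where the labels give replicate numbers, nothing in them names a shared day or culture.

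Genes named with values are those called in an exon comparison by edgeR or by either tool with the block, the 6 largest changes at 6 h with an unadjusted p under 0.05, the 8 highest levels in SYAT controls, the pioneer factors of the study, the 3 smallest p in each other comparison and those called in introns, 45 in all; Foxk1, Foxr2 and Sox5 were chosen after their values were seen. Of the genes counted, 1 is not reported here by name. The genes, the lists of FOXO regulators, FOXO targets and partner genes and the marker lists were chosen with earlier results of these data known.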

Additional observations from a re-analysis of the deposited data

Results flagged for a closer look

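Opposite directions, with both libraries of each group on one side of both controls, were seen for 6 named genes between SYAT and CGR8 cells after 4 h of IAA. Over all genes, 21.7% were separate upwards and 24.1% downwards in SYAT cells. In CGR8 cells, 21.6% and 20.6% were. The share of all genes with opposite directions was not computed, here or in the comparisons that follow, so the count cannot be set against it. The log2 changes in SYAT and CGR8 cells were 0.68 and -1.53 for Foxe1, 0.39 and -0.10 for Foxn2, 0.23 and -0.30 for Foxo4, 0.49 and -0.52 for Sox1, 0.62 and -0.53 for Sox10 and 0.069 and -0.57 for Sox12. The difference between the cell lines was not tested, since their tables were normalised separately.

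Between EG1 and LG1, Foxf1 had log2 changes of -1.23 and 0.54 with 1 h of IAA, and Sox7 of 0.39 and -0.74. The edgeR test of the difference gave 1.77 for Foxf1 (adjusted p = 1) and -1.13 for Sox7 (adjusted p = 1). Foxf1 had at most 16.6 normalised counts in a sorted library and Sox7 at most 24.7.

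Foxr1 had a log2 change of -0.37 with IAA in wtSRCAP cells and of 0.82 in cdSRCAP cells. The edgeR test of the difference gave 1.19 (adjusted p = 1), at 16.1 to 39.4 normalised counts.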

How the results depend on the processing

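Counts of forkhead and SOX genes past both thresholds were 0 or 2 in the IAA comparisons without a block, and they depended on the tool. Shares of all genes are not printed for counts with no filter on low counts, here and in introns. No comparison with all genes is drawn from those counts. In exon columns of SYAT cells, the calls at 2 h were 1 with DESeq2 and the replicate block (0.219% of all genes, the share given in brackets below). At 4 h they were 2 with DESeq2 (0.963%), 3 with DESeq2 and the block (1.82%), and 1 with no filter on low counts. At 6 h they were 4 with edgeR and the block (4.29%), 5 with DESeq2 (3.33%), 6 with DESeq2 and the block (6.31%), and 5 with no filter. At 8 h each of these 4 settings called 1 (3.3%, 2.41% and 3.93% with the first 3). Over 4 to 8 h the block, DESeq2 and no filter each called 3 instead of 2 (6.12% with edgeR and the block, 4.33% with DESeq2). In CGR8 exon columns the calls were 3 with edgeR and the block (Foxp1, Sox12 and Sox21; 2.47%), 1 with DESeq2 (0.691%), 3 with DESeq2 and the block (2.03%), and 2 with no filter. In wtSRCAP cells with IAA they were 4 with edgeR and the block (3.2%), 8 with DESeq2 and the block (4.23%) and 1 with no filter, and in cdSRCAP cells 3 and 4 with the block (1.81% and 2.72%). Between the clones, both tools with the block called 1 without IAA (0.91% and 1.33%), and DESeq2 with the block called 2 with IAA (2.09%). In LG1, an unadjusted p under 0.05 with a log2 change over 0.25 gave 2 genes in exon and 2 in intron columns. At that unadjusted p alone, 1 was higher and 1 lower in exon columns, where 0.285% and 0.733% of all genes were. Shares of all genes with the log2 limit, and in introns, are not printed. Those counts are therefore not set against all genes.

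In intron columns of SYAT cells, DESeq2 called 1, 2 and 2 at 4, 6 and 8 h (1.83%, 3.82% and 3.23%), and 2, 4 and 3 with the block (2.68%, 5.7% and 4.91%). No filter gave 1 in CGR8 cells. In wtSRCAP cells the counts were 2 (edgeR with the block, 2.3%), 1 (DESeq2, 1.5%), 2 (DESeq2 with the block, 3.93%) and 1 (no filter), and in cdSRCAP cells 1 (2.52%), 1 (1.38%), 2 (3.51%) and 1. Between the clones they were 1 without IAA (edgeR with the block, 1.07%) and, with IAA, 1 (DESeq2 with the block, 2.74%) and 2 (no filter). After subtraction of exon from intron counts, the EG1 and LG1 controls differed in 12 genes instead of 29, and the signs changed for Foxp1 (1.79), Foxj3 (2.47), Foxn3 (0.44) and Foxn2 (2.79), and for Foxi3 at 2 h in SYAT cells (-0.069).

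Leaving out single libraries changed the number of calls in exon columns at 6 h and over 4 to 8 h. It also did so in intron columns at 6 h and in both columns of CGR8 cells. Intron calls between EG1 and LG1 were fewer, and the other comparisons stayed without calls. Each of these fits leaves 1 library in a group, so their counts of calls are not printed. In CGR8 cells Foxp1 stood at a log2 change of 0.86 without control replicate 2 and at 0.36 without replicate 1. Foxd3 at 6 h was at -0.0070 without replicate 2 of that group and at 1.11 without replicate 1. Of 1444 values of named genes under these settings, 1299 kept their direction and side of the threshold, 29 lost the call, 110 gained one and 6 changed sign; the causes were not tested.

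Same-numbered samples of the time course correlated at 0.397 to 0.702 in exon columns among controls, 2, 4 and 8 h. Pairs with the 6 h group were at -0.0283 to 0.157. In intron columns these ranges were 0.276 to 0.725 and 0.0177 to 0.202. Intron correlations were 0.0744 to 0.298 in wtSRCAP and cdSRCAP cells and 0.0594 in CGR8 cells. In those introns, and for 6 h against control, the replicate block rests on a number alone. The other time course groups deviated together, and values without the block leave this pairing out.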
